A study of Mus musculus with 9 samples.

Results

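Isx and 8 genes of the vitamin A pathway, Scarb1, Bco1, Rbp2, Crabp2, Dhrs3, Rara, Rarb and Rarg, were followed in colonies of mouse intestinal stem cells. They are 9 of the 46517 genes counted in the study. Isx was chosen because its RNA was far higher in both synthetic gels than in Matrigel, so those differences are given as a description and carry no test. The 8 other genes were chosen for their place in the pathway, with earlier results of these data known. Counts of calls among them are therefore a description. Dissociated stem cells were grown for 4 days in non-degradable polyethylene glycol (PEG), in degradable PEG or in Matrigel, with 3 libraries of polyadenylated RNA for each matrix and 9 in all. Matrigel is a basement membrane extract of a mouse tumour, and PEG gels are synthetic. All 3 matrices received R-spondin, noggin and EGF, the GSK3 inhibitor CHIR99021, and valproic acid, which inhibits histone deacetylases. The sources used here give no strain, age or number of animals, and do not say whether the libraries came from separate cultures. The p-values therefore measure the spread between these libraries, which may be technical.

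Vitamin A reaches the intestinal epithelium as carotenoids and retinyl esters. Scavenger receptor Scarb1 takes up carotenoids, and the oxygenase Bco1 cleaves beta-carotene into retinal. Retinal is reduced to retinol for storage and export, or oxidised to retinoic acid, which switches on genes through the receptors RARα, RARβ and RARγ paired with retinoid X receptors. Isx is a homeobox transcription factor of the intestine. In mice, retinoic acid induces Isx, and Isx represses Scarb1 and Bco1, so that uptake and cleavage are held down when vitamin A is plentiful.

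Promoter sequence is shown for Isx, for Rarb, whose promoter is the textbook case of a retinoic acid response element, and for Bco1, a known target of Isx. Each line holds the 250 bases before the start site in the RefSeq annotation of GRCm38.p6, read 5′ to 3′ on the strand of the gene. Capitals mark the receptor motifs described below the lines and, in Bco1, a TATA box.
Isx, chr8:74872924-74873173, plus strand: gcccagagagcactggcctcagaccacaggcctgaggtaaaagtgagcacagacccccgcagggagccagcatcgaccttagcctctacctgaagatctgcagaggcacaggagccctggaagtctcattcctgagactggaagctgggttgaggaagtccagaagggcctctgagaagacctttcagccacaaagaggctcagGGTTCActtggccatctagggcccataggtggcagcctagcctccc
Rarb, chr14:16575477-16575726, minus strand: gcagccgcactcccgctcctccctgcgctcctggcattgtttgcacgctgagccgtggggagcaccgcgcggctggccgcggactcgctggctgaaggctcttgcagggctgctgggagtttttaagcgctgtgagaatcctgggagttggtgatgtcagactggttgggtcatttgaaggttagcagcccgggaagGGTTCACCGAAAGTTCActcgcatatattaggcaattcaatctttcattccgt
Bco1, chr8:117095615-117095864, plus strand: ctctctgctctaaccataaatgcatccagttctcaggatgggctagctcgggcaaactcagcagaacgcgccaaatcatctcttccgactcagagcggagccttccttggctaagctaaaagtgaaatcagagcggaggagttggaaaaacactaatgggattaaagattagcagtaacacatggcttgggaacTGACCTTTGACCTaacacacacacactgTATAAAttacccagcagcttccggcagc
In the Isx line, the capitals are a single receptor hexamer at positions -46 to -41, counted from the start site. In the Rarb line, they are a direct repeat of the hexamer with 5 bases between the copies (DR5), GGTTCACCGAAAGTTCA, at positions -53 to -37, and a further hexamer at -83 to -78 is in lower case. In the Bco1 line, the first capitals are a direct repeat with 1 base between the copies (DR1), TGACCTTTGACCT, which reads on the opposite strand at positions -56 to -44, and the second are TATAAA at positions -28 to -23.

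Windows of 300 bases, 250 before and 50 after the start, were found for 7 of the 9 genes, all but Scarb1 and Crabp2, and were searched on both strands. The hexamer searched was AGGTCA, with the related words AGTTCA and also GGGTCA and lastly GGTTCA, and these words make up the direct repeats and so overlap them. A hexamer was present in 43.7% of all 32851 windows of that length, while DR5 was present in 0.0974% (32 windows) and DR1 in 0.222% (73 windows). A repeat with 2 bases between the copies (DR2) was present in 0.268% and in none of the 7 genes' windows. Among the 7 genes, DR5 was found in Rarb and DR1 in Bco1, and hexamers stood in the windows of Rbp2, Rara and Rarg as well. TATAAA was present in 13.6%. These matches are letters in a window and were not tested for binding.

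Between 38.0 M and 47.2 M reads per library were assigned to genes. Of the 9 genes, 8 had enough reads to be tested among 14870 genes, and Crabp2 did not. Levels are CPM, the reads of a gene scaled to a common library size, and CPM per kilobase of exon where genes are compared with each other. The epithelial label was met: the 8 markers of intestinal epithelium summed to 5533–6626 CPM in non-degradable PEG, 6015–6712 CPM in degradable PEG and 5255–5492 CPM in Matrigel, and the crypt stem cell gene Lgr5 averaged 198 ± 15.9 CPM in non-degradable PEG, 155 ± 27.2 CPM in degradable PEG and 195 ± 28.0 CPM in Matrigel (SD, n = 3 each). Blood markers summed to 4.57–6.31 CPM in non-degradable PEG, 4.15–4.48 CPM in degradable PEG and 2.91–3.28 CPM in Matrigel, with 1 of 8 at 0 in all libraries. Of those tested, Itgam was called, higher in non-degradable PEG against Matrigel (2.33-fold, adjusted p = 0.00311). Their part in the results was not tested. Endothelial markers summed to at most 1.96 CPM, with 1 of 6 at 0. Mesenchymal markers summed to 84.1–119 CPM in non-degradable PEG, 92.7–158 CPM in degradable PEG and 125–274 CPM in Matrigel. Most of that sum was Vim, which was called lower in non-degradable PEG against Matrigel (adjusted p = 0.0129), while Col3a1, Dcn and Lum had no count in any library.

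Isx was a strongly expressed gene in both PEG gels and a barely detected one in Matrigel. It measured 185, 176 and 212 CPM in the 3 non-degradable PEG libraries, 129.7, 105 and 122 CPM in the degradable PEG libraries, and 2.05, 0.842 and 0.352 CPM in the Matrigel libraries. The lowest PEG library stood far above the highest Matrigel library. In reads, the Matrigel libraries held 80, 40 and 16 against 4234 to 9240 in the PEG libraries, so the Matrigel level rests on few reads. The fitted difference was 7.51 on the log2 scale for non-degradable PEG against Matrigel and 6.83 for degradable PEG against Matrigel. Both comparisons share the Matrigel libraries. Isx spans chr8:74873173-74893506 on the plus strand of GRCm38 with 4 exon blocks, and no other annotated gene overlaps it.

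Per kilobase of exon, Isx averaged 107 ± 10.4 CPM in non-degradable PEG, 66.2 ± 7.12 in degradable PEG and 0.603 ± 0.487 in Matrigel (SD, n = 3 each). Ranked by that measure among 14814 genes, 2.19% of genes stood above it in non-degradable PEG, 4.56% in degradable PEG and 80.6% in Matrigel. Matrigel replicate 1 was the highest Matrigel library for Isx, as it was for 3 of the 8 tested genes of the set (Isx, Bco1 and Rbp2), 32 of 57 other retinoid pathway genes and 12 of 13 lipid absorption genes described below, beside 38.1% of all tested genes. The part of that library in the results was not tested beyond the fits without it. Without that library the log2 differences were 8.30 and 7.62. In RNA from whole colonies, fewer cells that express a gene and less RNA per cell cannot be told apart.

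**Figure D1:**
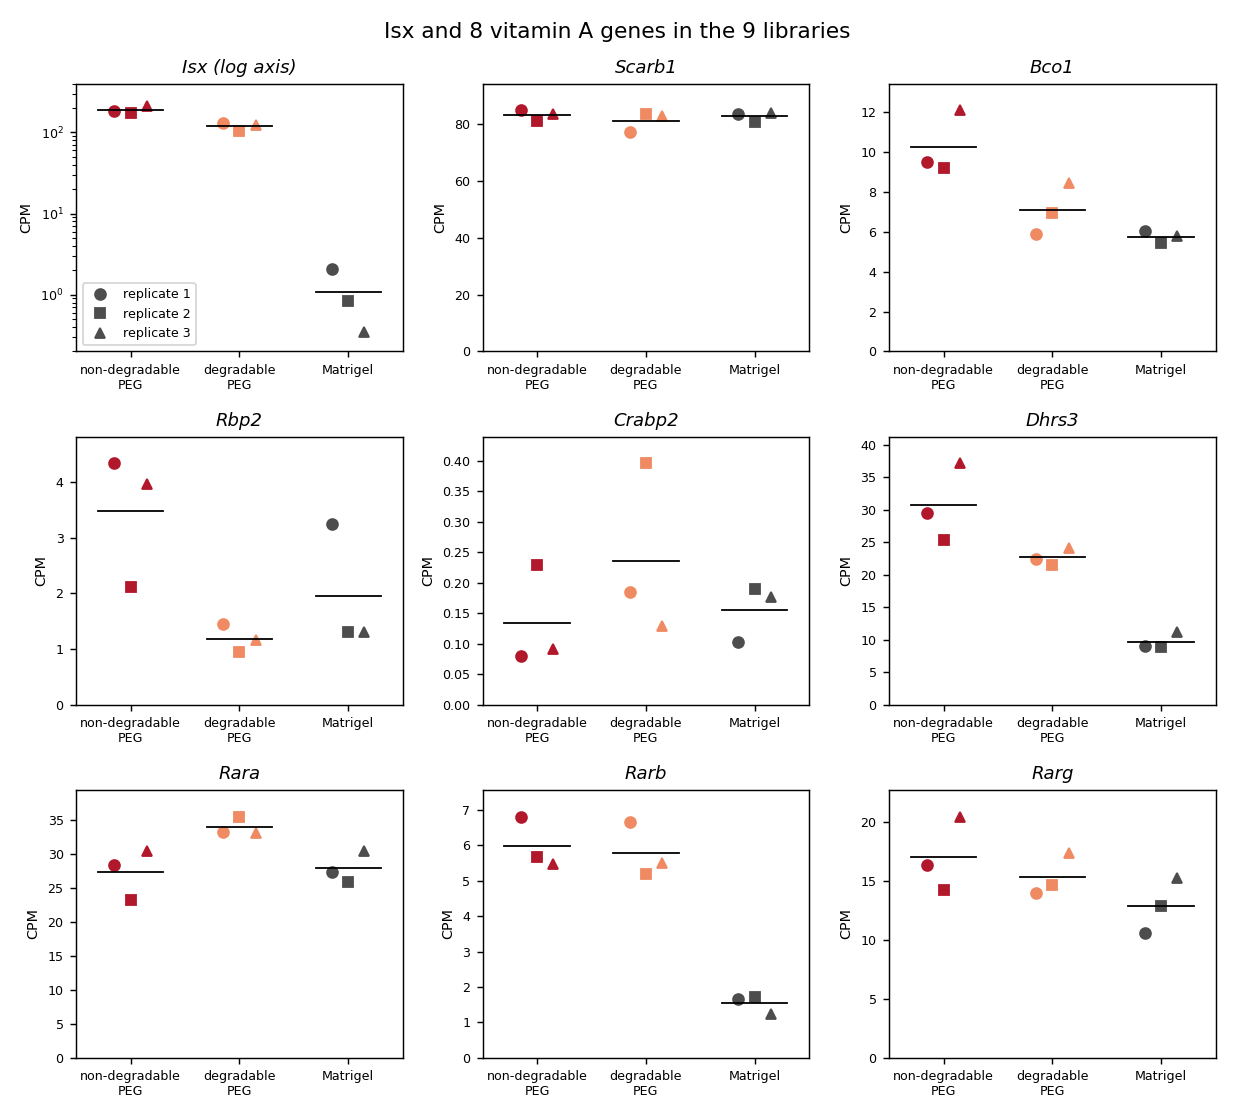
CPM of Isx and the 8 vitamin A genes in each library, by matrix. Points are libraries, marker shapes are replicate numbers and lines are means of 3 libraries. Isx is on a log axis, where the PEG libraries lie between 105 and 212 CPM and the Matrigel libraries between 0.352 and 2.05 CPM. Dhrs3 and Rarb also have every PEG library above every Matrigel library.

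Scarb1, the carotenoid receptor (chr5:125277087-125341094, minus strand, with GENCODE M21 positions on GRCm38 here and below), did not pass in either gel. It measured 84.9, 81.1 and 83.6 CPM in non-degradable PEG, 77.2, 83.4 and 82.7 CPM in degradable PEG, and 83.4, 80.7 and 84.0 CPM in Matrigel. Its libraries overlapped between all matrices, and its adjusted p was 0.936 for non-degradable PEG against Matrigel and 0.805 for degradable PEG against Matrigel (edgeR quasi-likelihood test, Benjamini-Hochberg adjustment over all tested genes, as for every adjusted p here unless another tool is named). The 95% interval of the fold ran from 0.918 to 1.10 for non-degradable PEG and from 0.895 to 1.07 for degradable PEG.

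Bco1, the carotene oxygenase (chr8:117095854-117133720, plus strand), rose in non-degradable PEG. It measured 9.48, 9.17 and 12.1 CPM there, 5.89, 6.93 and 8.45 CPM in degradable PEG, and 6.04, 5.41 and 5.79 CPM in Matrigel. All non-degradable PEG libraries lay above all others, while degradable PEG and Matrigel overlapped. Against Matrigel the log2 fold change was 0.84 ± 0.160 (SE) in non-degradable PEG, with an adjusted p of 0.00541 that stayed past the threshold under each of 15 alternatives, and 0.30 ± 0.161 in degradable PEG, with an adjusted p of 0.253. Among all tested genes, 43.4% had no overlap between non-degradable PEG and Matrigel, 21.8% being higher.

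Rbp2, the retinol and retinal binding protein of absorbing enterocytes (chr9:98486115-98509781, plus strand), was low and uneven. It measured 4.33, 2.11 and 3.97 CPM in non-degradable PEG, 1.45, 0.940 and 1.16 CPM in degradable PEG, and 3.25, 1.31 and 1.30 CPM in Matrigel. Both PEG gels overlapped Matrigel, where replicate 1 alone reached the non-degradable PEG range. The log2 fold change against Matrigel was 0.84 ± 0.372 in non-degradable PEG (adjusted p = 0.142) and -0.71 ± 0.398 in degradable PEG (adjusted p = 0.282). The first passed in the fit with replicate number as a block (adjusted p = 0.0219), and it was 1.41 without Matrigel replicate 1 (adjusted p = 0.0196).

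Other genes of lipid absorption in enterocytes give the setting for these uptake genes. In non-degradable PEG against Matrigel, 5 of 13 rose and 1 fell, and 7 rose and 1 fell with replicate number as a block, beside 9.71% of all genes higher and 7.13% lower, and 26.1% called with the block. Of the 6 calls, Dgat2, an enzyme of triglyceride synthesis (higher), and Fabp2 (lower) were each lost in 5 of 15 alternatives, with adjusted p up to 0.152 for Dgat2 and 0.129 for Fabp2. The cholesterol transporter Npc1l1 measured 63.9, 47.8 and 79.5 CPM in non-degradable PEG, against 33.8, 22.1 and 27.1 CPM in Matrigel (log2 fold change 1.21 ± 0.197, adjusted p = 0.00221). Mogat2, which rebuilds dietary fat, averaged 23.7 ± 4.17 CPM in non-degradable PEG against 11.5 ± 1.37 CPM in Matrigel (SD, n = 3 each; adjusted p = 6.28e-04), and Mttp, which loads lipid onto apolipoprotein B, averaged 298 ± 46.5 CPM in non-degradable PEG against 177 ± 15.1 CPM in Matrigel (adjusted p = 0.00243). In degradable PEG against Matrigel, 7 of the 13 had an unadjusted p under 0.05 in either direction, as had 4057 of all 14870 genes. DESeq2 called 4 of the 13, and 2322 of the 14870. With replicate number as a block 1 rose and 4 fell, beside 18.7% of all genes called. In the edgeR fit without the block 2 fell and none rose, beside 12.2% of all genes called and 4.79% lower. The 2 that fell were the fatty acid binding protein genes Fabp2, at 18.5 ± 2.15 CPM in degradable PEG against 48.4 ± 14.8 CPM in Matrigel (adjusted p = 7.43e-04), and Fabp1, at 4.54 ± 1.83 CPM in degradable PEG against 16.6 ± 10.5 CPM in Matrigel (adjusted p = 0.0175, which became 0.0515 without Matrigel replicate 1, 0.0728 without degradable PEG replicate 2 and 0.0585 without degradable PEG replicate 3). The summed enterocyte markers were 379–520 CPM in non-degradable PEG, 269–339 CPM in degradable PEG and 383–497 CPM in Matrigel. The largest single part was the glucose transporter gene Slc5a1, which did not pass against Matrigel in either gel. Of 9 tested enterocyte markers, Alpi (2.58-fold) and Apoa1 (3.27-fold) rose in non-degradable PEG against Matrigel, and Anpep and Fabp2 fell. The degradable PEG libraries had 4 that fell against Matrigel (Sis, with a log2 fold change of -2.31, Fabp1, Fabp2 and Anpep) and none rose. The part of these markers in the Bco1 and Rbp2 values was not tested.

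Crabp2, which hands retinoic acid to its receptors in the nucleus (chr3:87948666-87953376, plus strand), was close to the detection limit. It had 3, 9 and 4 reads in the non-degradable PEG libraries, 7, 16 and 5 in degradable PEG and 4, 9 and 8 in Matrigel, and no difference could be resolved at this depth.

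Dhrs3, a retinaldehyde reductase that turns retinal back into retinol and is itself induced by retinoic acid (chr4:144892827-144928209, plus strand), rose in both gels. It measured 29.5, 25.4 and 37.2 CPM in non-degradable PEG, 22.4, 21.5 and 24.1 CPM in degradable PEG, and 9.09, 8.80 and 11.3 CPM in Matrigel. Every PEG library exceeded every Matrigel library. The log2 fold change was 1.66 ± 0.144 in non-degradable PEG (3.16-fold, adjusted p = 7.70e-05) and 1.22 ± 0.144 in degradable PEG (2.33-fold, adjusted p = 3.98e-04). Both calls held under each of 15 alternatives.

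Of the 3 retinoic acid receptor genes, Rarb (chr14:16430839-16819156, minus strand) passed in both gels. The DR5 shown above lies before a start site inside the span of the gene. The counts pool all transcripts of the gene and are not assigned to that start. Rarb measured 6.82, 5.67 and 5.48 CPM in non-degradable PEG, 6.65, 5.20 and 5.51 CPM in degradable PEG, and 1.66, 1.73 and 1.23 CPM in Matrigel. PEG and Matrigel libraries did not overlap. Rarb rose in both gels, with a log2 fold change of 1.96 ± 0.184 in non-degradable PEG (3.88-fold, adjusted p = 1.24e-04) and 1.91 ± 0.184 in degradable PEG (3.75-fold, adjusted p = 1.47e-04).

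Rarb shares 2020 of its 5265 exonic bases with Top2b, the DNA topoisomerase gene on the opposite strand, and no source used here gives the strand setting of the counting. The Rarb values are therefore uncertain. Top2b averaged 235 ± 18.7 CPM in non-degradable PEG, 235 ± 26.5 CPM in degradable PEG and 280.1 ± 3.83 CPM in Matrigel (SD, n = 3 each). Its log2 fold change was -0.25 in both comparisons with Matrigel (adjusted p = 0.0716 for non-degradable PEG, 0.0901 for degradable PEG). The part of Top2b reads in the Rarb values was not tested.

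Rara (chr11:98927818-98974942, plus strand), the highest of the 3 receptor genes per kilobase of exon, did not pass in either comparison. It measured 28.4, 23.2 and 30.4 CPM in non-degradable PEG, 33.1, 35.5 and 33.0 CPM in degradable PEG, and 27.2, 25.9 and 30.4 CPM in Matrigel. The degradable PEG libraries lay above all others, with a log2 fold change against Matrigel of 0.28 ± 0.103 and an adjusted p of 0.102. In that comparison 30.4% of all tested genes had no overlap, 15.6% being higher. For non-degradable PEG against Matrigel the log2 fold change was -0.03 ± 0.104 (adjusted p = 0.892), and its sign changed when Matrigel replicate 3 or non-degradable PEG replicate 2 was left out.

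Rarg (chr15:102234938-102257517, minus strand) measured 16.4, 14.2 and 20.4 CPM in non-degradable PEG, 13.9, 14.6 and 17.4 CPM in degradable PEG, and 10.5, 12.8 and 15.2 CPM in Matrigel. The libraries overlapped, and the adjusted p was 0.112 for non-degradable PEG against Matrigel (log2 fold change 0.40 ± 0.162) and 0.363 for degradable PEG against Matrigel (0.25 ± 0.163). With replicate number as a block, the first passed with an adjusted p of 0.0175.

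Set side by side per kilobase of exon, the receptors kept the order Rara, Rarg, Rarb in every library. Rara made up 55.0 ± 0.781% of the summed receptor level in non-degradable PEG, 62.3 ± 2.58% in degradable PEG and 65.9 ± 2.80% in Matrigel. Rarb made up 10.1 ± 1.71% in non-degradable PEG, 8.85 ± 1.38% in degradable PEG and 3.07 ± 0.776% in Matrigel (SD, n = 3 each). The lowest Rarb share in a PEG library was 7.87% and the highest in a Matrigel library 3.54%. Rarg made up 34.9 ± 2.30% in non-degradable PEG, 28.8 ± 2.87% in degradable PEG and 31.0 ± 3.17% in Matrigel. The summed level was 11.4 ± 1.55 CPM per kilobase in non-degradable PEG, 12.4 ± 0.292 in degradable PEG and 9.69 ± 0.939 in Matrigel. The shares and the sum use all exonic bases of Rarb, with those shared with Top2b, and so are uncertain as well.

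**Figure D2:**
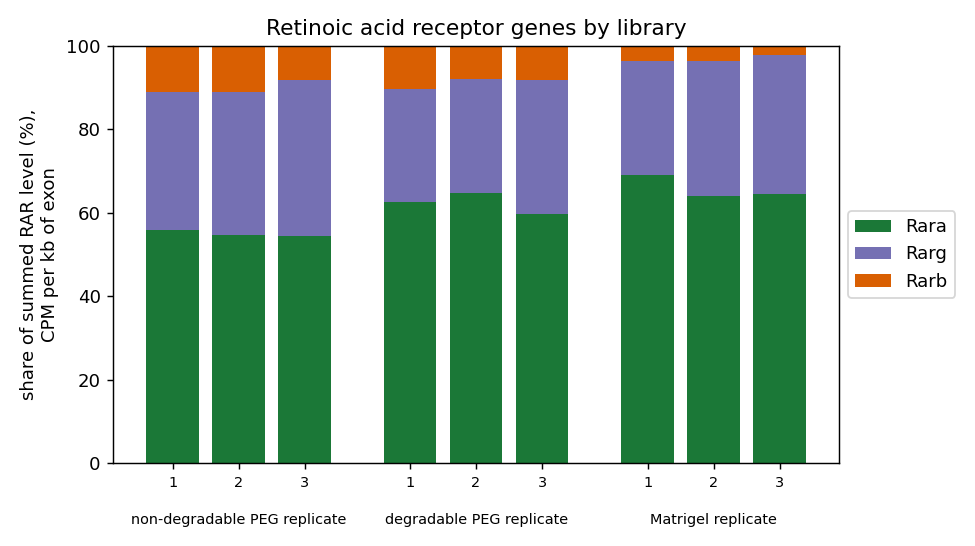
Share of Rara, Rarg and Rarb in the summed level of the 3 receptor genes, in percent of CPM per kilobase of exon, for each library. Each bar is a library, grouped by matrix. The Rarb segment averages 10.1% in non-degradable PEG, 8.85% in degradable PEG and 3.07% in Matrigel. It uses all exonic bases of Rarb, with those shared with Top2b, and is uncertain.

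Of the 8 genes other than Isx, 3 of the 7 tested rose in non-degradable PEG against Matrigel (Bco1, Dhrs3 and Rarb) and none fell, while 16.8% of all 14870 tested genes were called, 9.71% higher and 7.13% lower. With replicate number as a block, 5 of 7 passed, beside 26.1% of all genes. For degradable PEG against Matrigel, 2 of 7 rose (Dhrs3 and Rarb), with 12.2% of all genes called, 7.42% higher and 4.79% lower.

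**Figure D3:**
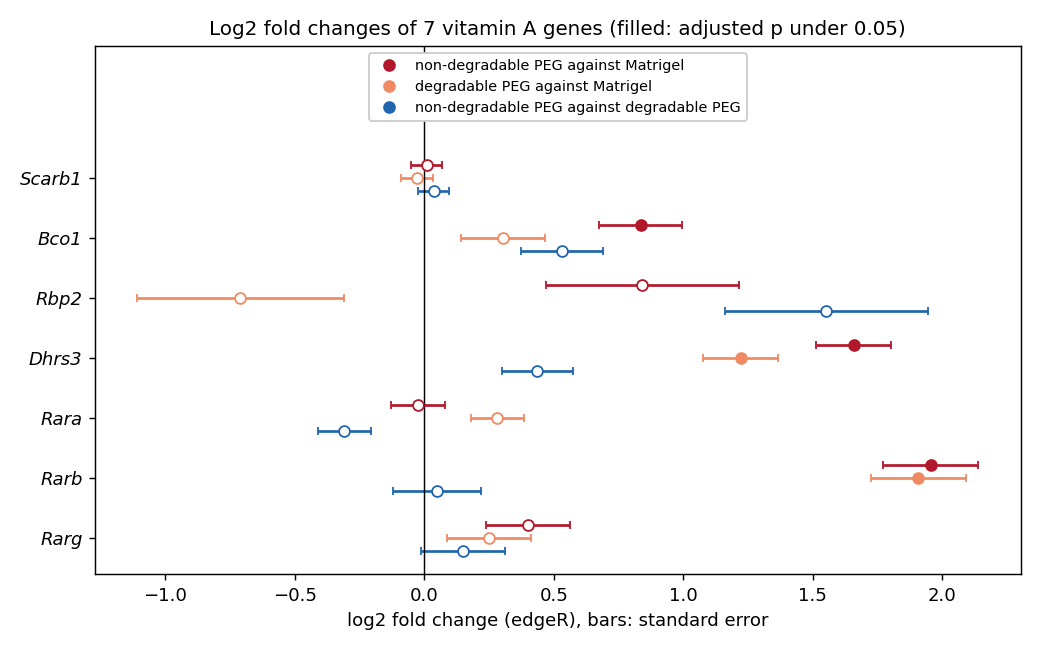
Log2 fold changes of the 7 tested genes other than Isx, in 3 comparisons. Points are edgeR estimates, bars are standard errors and filled points had an adjusted p under 0.05. Dhrs3 and Rarb lie above 1.2 in both comparisons with Matrigel, and Scarb1 lies near 0 in all 3.

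Between the gels, Isx averaged 191 ± 18.6 CPM in non-degradable PEG and 119 ± 12.8 CPM in degradable PEG (SD, n = 3 each), with no overlap between the libraries. Its log2 difference, the only Isx contrast outside its choice, was 0.69 ± 0.230, or 1.61-fold with a 95% interval of 1.13 to 2.28, and missed the threshold (adjusted p = 0.207, unadjusted p = 0.0122). The difference also missed the threshold in 12 of 15 alternatives and passed in 3, with adjusted p up to 0.611. The adjusted p was 0.00996 with no filter on low counts, 0.0170 in a fit of the PEG libraries alone and 0.0344 without Matrigel replicate 1, with log2 differences of 0.68 in all of these.

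Among the 8 other genes, 0 of 7 tested passed between non-degradable and degradable PEG in the edgeR fit. Of all genes 1.28% were called there, 0.814% higher and 0.464% lower. DESeq2 called 2 of the 7, and 512 of all 14870 genes. An unadjusted p under 0.05 in edgeR was found for 4 of the 7, and for 2203 of the 14870. Those 4 were Rbp2, Bco1, Dhrs3 and Rara. Rbp2 had a log2 fold change of 1.55 ± 0.391, or 2.93-fold (95% interval 1.62 to 5.32, adjusted p = 0.0924). It passed in 5 of the 14 alternatives that gave it a value. Among these were DESeq2 (adjusted p = 0.00502), the fit of the PEG libraries alone (0.0438) and replicate number as a block (0.0122). Bco1 had 0.53 ± 0.159 (adjusted p = 0.160) and passed in DESeq2 (adjusted p = 0.0460). Dhrs3 had 0.44 ± 0.139 (adjusted p = 0.184) and passed with replicate number as a block (adjusted p = 0.0278). Rara was on the lower side in non-degradable PEG, at -0.31 ± 0.104 (adjusted p = 0.209). None of these 4 overlapped between the gels, which was also so for 19% of all tested genes, 10% higher and 9.02% lower. The intervals of the fold ran from 0.800 to 1.34 for Rarb, 0.867 to 1.42 for Rarg and 0.936 to 1.12 for Scarb1. Of the 13 lipid absorption genes, 5 were higher in non-degradable PEG than in degradable PEG and none lower, or 38.5% beside 1.28% of all genes. With replicate number as a block 8 were higher, beside 3.64% of all genes called. Npc1l1 lost its call in 5 of 15 alternatives, and Mttp and Fabp1 in 2 each. Of 9 tested enterocyte markers, 4 were higher in non-degradable PEG than in degradable PEG and none lower. These lists share genes, and their part in the values above was not tested.

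The rest of the retinoid pathway was read from lists of 73 other genes, of which 57 were tested. In non-degradable PEG against Matrigel 7 rose and 4 fell, or 19.3% called beside 16.8% of all genes, with a median log2 fold change of 0.00194 beside -0.00210 over all genes. The count was 21 with replicate number as a block (14 higher and 7 lower), 6 without Matrigel replicate 1, Matrigel replicate 3 or non-degradable PEG replicate 1, and 5 without non-degradable PEG replicate 3. Over all genes the block called 26.1%, and these fits without a library called 1189 to 1814 genes. In degradable PEG against Matrigel 5 rose and 7 fell, or 21.1% called beside 12.2%, with a median of -0.03 beside -0.02 over all genes. With replicate number as a block 6 rose and 10 fell in that comparison, beside 18.7% of all genes called. The lists are described by these counts, with no set test.

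**Figure D4:**
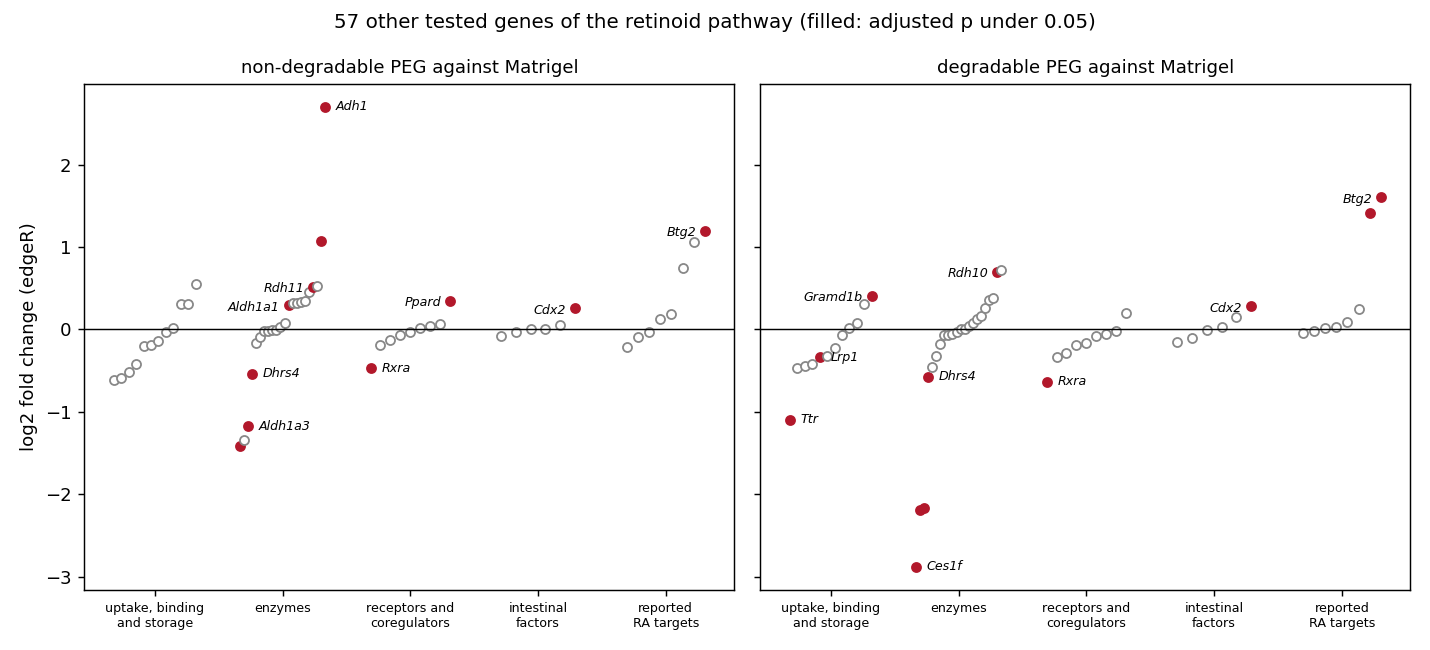
Log2 fold changes of the 57 other tested pathway genes in each PEG gel against Matrigel, by list. Each point is a gene and filled points had an adjusted p under 0.05. Adh1 is the highest point in non-degradable PEG at 2.70, and Ces1f the lowest in degradable PEG at -2.88.

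The largest group, 22 tested enzymes, had 4 higher and 3 lower in non-degradable PEG against Matrigel, and 8 higher and 4 lower with replicate number as a block, beside 16.8% of all genes called, and 26.1% with the block. Against Matrigel in degradable PEG, 1 was higher and 4 were lower, beside 12.2% called. The block gave 2 higher and 4 lower there, beside 18.7%. Adh1, an alcohol dehydrogenase that can oxidise retinol, measured 32.1, 19.2 and 33.0 CPM in non-degradable PEG, 7.97, 5.49 and 7.86 CPM in degradable PEG, and 7.96, 2.17 and 2.97 CPM in Matrigel. It rose 6.51-fold in non-degradable PEG against Matrigel (log2 fold change 2.70 ± 0.401, adjusted p = 0.00126), and degradable PEG overlapped Matrigel. Rdh11, which reduces retinal, averaged 201 ± 16.8 CPM in non-degradable PEG, 158 ± 17.7 CPM in degradable PEG and 141 ± 7.38 CPM in Matrigel, a log2 fold change of 0.51 ± 0.0918 for non-degradable PEG (adjusted p = 0.00362).

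Rdh10, which carries out the first oxidation of retinol on the way to retinoic acid, measured 50.4, 54.2 and 50.5 CPM in non-degradable PEG, 74.5, 55.8 and 53.9 CPM in degradable PEG, and 36.2, 45.5 and 31.7 CPM in Matrigel. All PEG libraries lay above all Matrigel libraries. The log2 fold change passed in degradable PEG (0.70 ± 0.142, adjusted p = 0.00893) and missed in non-degradable PEG (0.45 ± 0.142, adjusted p = 0.0511), where it passed with replicate number as a block (adjusted p = 0.0261). It passed there in 8 of 15 alternatives in all, among them the fits without Matrigel replicate 2 (adjusted p = 0.0210), degradable PEG replicate 1 (0.0198) or degradable PEG replicate 3 (0.0491), with adjusted p between 0.00812 and 0.155 over all 15. Between the gels its adjusted p was 0.447.

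Of Aldh1a1, Aldh1a2 and Aldh1a3, the dehydrogenases that turn retinal into retinoic acid, Aldh1a1 had the most reads. It averaged 83.0 ± 7.53 CPM in non-degradable PEG, 59.8 ± 2.86 CPM in degradable PEG and 67.7 ± 3.47 CPM in Matrigel. The rise in non-degradable PEG against Matrigel was small (0.29 ± 0.0797, adjusted p = 0.0289) and was lost without Matrigel replicate 2 or 3 or non-degradable PEG replicate 2 or 3, with adjusted p between 0.0830 and 0.118. Its close copy Aldh1a7 could take some of its reads. Aldh1a2 had 6 to 19 reads per library and did not pass in any comparison, and Aldh1a3 had 5 to 19 reads, with a log2 fold change of -1.17 in non-degradable PEG against Matrigel (adjusted p = 0.0449, between 0.0352 and 0.160 over the alternatives).

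Dhrs4, a reductase that acts on retinal, fell in both gels. It measured 119, 116 and 93.3 CPM in non-degradable PEG, 108, 116 and 96.6 CPM in degradable PEG, and 188, 143 and 144 CPM in Matrigel. The log2 fold change was -0.53 in non-degradable PEG (adjusted p = 0.0146) and -0.57 in degradable PEG (adjusted p = 0.0127). The first adjusted p became 0.0525 without Matrigel replicate 1 and 0.0588 without non-degradable PEG replicate 3, and the second 0.0523 without degradable PEG replicate 3. Ces1f, a carboxylesterase from a cluster of near-identical genes whose reads counting could split, measured 0.579, 0.544 and 0.155 CPM in degradable PEG against 5.33, 2.19 and 2.00 CPM in Matrigel (-2.88 ± 0.482, adjusted p = 0.00285).

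Of the enzymes that break retinoic acid down, Cyp26a1 had between 0 and 2 reads in every library and was not tested. Cyp26b1 had 5 to 27 reads and did not pass in any comparison. Cyp26a1 is a strong retinoic acid target in many tissues, and no difference in it could be seen at this depth.

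**Figure D5:**
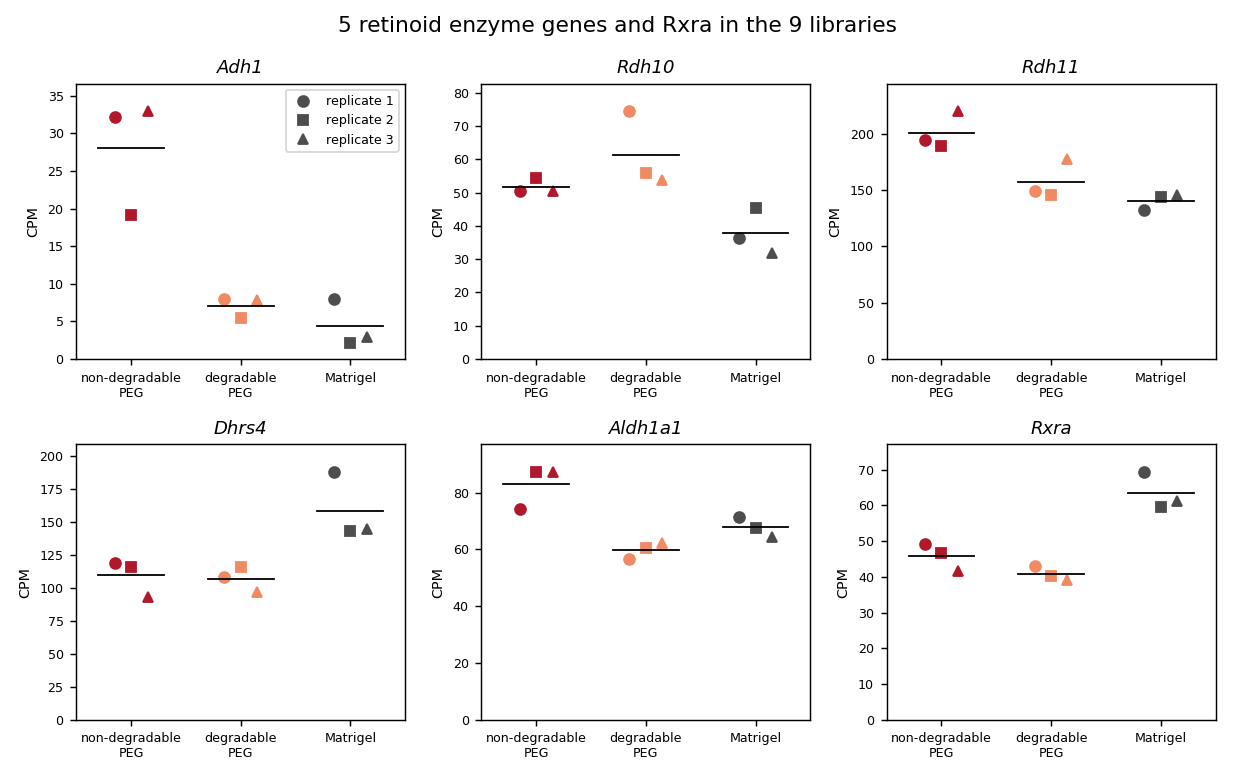
CPM of Adh1, Rdh10, Rdh11, Dhrs4, Aldh1a1 and Rxra in each library, by matrix. Points are libraries, marker shapes are replicate numbers and lines are means of 3 libraries. Adh1 averages 28.1 CPM in non-degradable PEG, 7.11 CPM in degradable PEG and 4.37 CPM in Matrigel, and Rxra is lower in every PEG library than in every Matrigel library.

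The 12 tested genes of uptake, binding and storage had 0 calls in non-degradable PEG against Matrigel in edgeR. With replicate number as a block 2 were higher and 2 lower. Over all genes 16.8% were called, and 26.1% with the block. An unadjusted p under 0.05 was found for 3 of the 12, and for 4848 of all 14870 genes. DESeq2 called 2 of the 12, and 3130 of the 14870. For degradable PEG against Matrigel 1 rose and 2 fell, or 25% called beside 12.2%. The block gave 1 higher and 4 lower there, beside 18.7%. Gramd1b, a sterol transfer protein, had a log2 fold change of 0.41 (adjusted p = 0.0215, but 0.0768 without Matrigel replicate 1 and 0.0833 without Matrigel replicate 3). Lrp1, an endocytic receptor for chylomicron remnants, had -0.33 (adjusted p = 0.0104, but 0.0509 without Matrigel replicate 3). Ttr, the partner of retinol binding protein in blood, had -1.09 (adjusted p = 0.0306, and between 0.0606 and 0.109 without Matrigel replicate 1 or 3 or any 1 degradable PEG library).

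Lrat, which esterifies retinol for storage, averaged 15.2 ± 0.985 CPM in non-degradable PEG, 13.0 ± 2.09 CPM in degradable PEG and 17.4 ± 2.84 CPM in Matrigel (SD, n = 3 each) and did not pass (adjusted p = 0.383 for non-degradable PEG and 0.0817 for degradable PEG). Its log2 fold change for degradable PEG was -0.42, which passed in 5 of 15 alternatives: DESeq2 (adjusted p = 0.0458), no filter on low counts (0.0384), the replicate block (0.0392), without Matrigel replicate 2 (0.0336) and without degradable PEG replicate 3 (0.0498).

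Among the partner receptors, Rxra fell in both gels. It measured 49.2, 46.6 and 41.7 CPM in non-degradable PEG, 43.0, 40.4 and 39.2 CPM in degradable PEG, and 69.4, 59.5 and 61.2 CPM in Matrigel. The log2 fold change was -0.47 ± 0.0850 (adjusted p = 0.00408) in non-degradable PEG and -0.63 ± 0.0854 (adjusted p = 8.76e-04) in degradable PEG, and both held under each of 15 alternatives. Rxrb did not pass and averaged 58.2 ± 1.60 CPM in non-degradable PEG, 60.0 ± 5.26 CPM in degradable PEG and 60.8 ± 1.86 CPM in Matrigel, and Rxrg had no read in any library. Ppard, a nuclear receptor that some fatty acids activate, had a log2 fold change of 0.34 in non-degradable PEG (adjusted p = 0.0272), which was lost without any 1 Matrigel library or without non-degradable PEG replicate 1 or 3 (adjusted p between 0.0514 and 0.123).

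The regulator list held 6 intestinal transcription factors, of which 1 was called in each gel against Matrigel, or 16.7%. Over all genes the share called was 16.8% for non-degradable PEG and 12.2% for degradable PEG. Cdx2, a homeobox factor of intestinal identity known to act on the Isx gene, measured 284, 252 and 301 CPM in non-degradable PEG, 272, 294 and 285 CPM in degradable PEG, and 247, 235 and 218 CPM in Matrigel. Its log2 fold change was 0.26 ± 0.0796 in non-degradable PEG (adjusted p = 0.0485) and 0.28 ± 0.0797 in degradable PEG (adjusted p = 0.0423). The first call was lost in 7 and the second in 6 of 15 alternatives, both of them without any 1 Matrigel library, without non-degradable PEG replicate 1 and without degradable PEG replicate 3. The adjusted p of the lost calls was between 0.0541 and 0.192.

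Of 8 tested genes listed as retinoic acid targets, 1 rose in non-degradable PEG against Matrigel, or 12.5% beside 16.8% of all genes called, and 2 with replicate number as a block, beside 26.1%. For degradable PEG against Matrigel the number was 2, or 25% beside 12.2%. Btg2, an antiproliferative gene that answers many stimuli besides retinoic acid, measured 191, 208 and 347 CPM in non-degradable PEG, 286, 345 and 358 CPM in degradable PEG, and 121, 108 and 96.7 CPM in Matrigel. The log2 fold change was 1.20 ± 0.195 (adjusted p = 0.00220) in non-degradable PEG and 1.60 ± 0.197 (adjusted p = 5.15e-04) in degradable PEG.

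Between the gels, 3 of the 57 pathway genes passed, all higher in non-degradable PEG: Adh1 (1.98 ± 0.386, adjusted p = 0.0352), Aldh1a1 (0.47 ± 0.0800, adjusted p = 0.0214) and Lrp1 (0.35 ± 0.0700, adjusted p = 0.0392). This is 5.26% beside 1.28% of all genes. Of 15 alternatives, Adh1 lost its call in 5, Aldh1a1 in 4 and Lrp1 in 10. The alternatives that ended the Lrp1 call included upper-quartile scaling (adjusted p = 0.0691), the fit of the PEG libraries alone (0.0742) and leaving out any 1 PEG library. Of the 57 genes, 2 passed without degradable PEG replicate 3, and 0 or 1 without any other PEG library, while DESeq2 called 8. Over all genes, 139 passed without degradable PEG replicate 3 and 19 to 143 without any other PEG library, while DESeq2 called 512 of 14870.

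The genes most like Isx across the libraries were found by Pearson's r of log2 CPM over all 14869 other tested genes. They were Entpd8 (r = 0.993), Mirt1 (0.993), Noxa1 (0.993), Psd4 (0.991), Rarb (0.986) and Cdkn2a (0.986), over 9 libraries. Spearman's rho ran from 0.783 for Cdkn2a to 0.950 for Psd4. The 3 Matrigel libraries stand apart from the 6 PEG libraries in all of these genes, and r rests on that gap. Over the 6 PEG libraries alone r was 0.744 for Entpd8, 0.665 for Mirt1, 0.440 for Noxa1, 0.759 for Psd4, 0.264 for Rarb and 0.513 for Cdkn2a.

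Entpd8, a cell surface nucleotidase, averaged 43.8 ± 7.52 CPM in non-degradable PEG, 36.9 ± 1.94 CPM in degradable PEG and 5.75 ± 1.43 CPM in Matrigel (SD, n = 3 each). Noxa1, an activator of NADPH oxidase, averaged 16.1 ± 0.468 CPM in non-degradable PEG, 15.2 ± 2.09 CPM in degradable PEG and 4.90 ± 1.15 CPM in Matrigel. The ends of Entpd8 and Noxa1 overlap on opposite strands, so reads from that short stretch could not be assigned without strand. Psd4, an exchange factor for ARF GTPases, averaged 41.1 ± 2.56 CPM in non-degradable PEG, 37.2 ± 1.88 CPM in degradable PEG and 18.9 ± 2.33 CPM in Matrigel. Cdkn2a, a locus that encodes inhibitors of the cell cycle, averaged 9.48 ± 0.774 CPM in non-degradable PEG, 8.40 ± 0.858 CPM in degradable PEG and 3.00 ± 0.447 CPM in Matrigel. Mirt1, a noncoding RNA gene, averaged 0.981 ± 0.0941 CPM in non-degradable PEG, 0.836 ± 0.0998 CPM in degradable PEG and 0.175 ± 0.0383 CPM in Matrigel.

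Of the other vitamin A genes, Dhrs3 had r = 0.935 with Isx over the 9 libraries and 0.893 over the 6 PEG libraries, and Bco1 0.736 and 0.817. Rbp2 had 0.227 over 9 libraries and 0.950 over the PEG libraries, where both genes were higher in every non-degradable PEG library than in every degradable one. Rara had 0.239 over 9 libraries and -0.68 over the PEG libraries. Dhrs3 and Bco1 were also higher in every non-degradable PEG library than in every degradable one, and Rara was lower. The r of each over the PEG libraries therefore includes the gap between the gels. The libraries in these correlations share a matrix and a replicate number, and no test was made of them.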

How the data were processed

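Polyadenylated RNA of 9 libraries was read from the authors' deposited tables of raw counts per gene. Per the submitters' processing notes, cutadapt 1.3, STAR 2.4.2a and HTSeq 0.6.1 were used with GRCm38. No source used here gives the annotation or the strand setting. The 5 tally rows of each table were removed. Of 46517 genes, 46005 matched a symbol in GENCODE M21, which gave positions and exon lengths.

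Genes were filtered with filterByExpr, libraries scaled by TMM, and 1 edgeR quasi-likelihood fit (edgeR 4.0.16, R 4.3.3) of all libraries gave each contrast. P-values were adjusted over 14870 genes by the Benjamini-Hochberg method, with a threshold of 0.05. Standard errors are the size of the log2 fold change divided by the square root of its F statistic. Correlations with Isx used log2 CPM with a prior count of 2.

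Named genes were the 9 genes, called list genes averaging 1 CPM or more, a fixed set of pathway genes and the 6 genes most like Isx. Aldh1a7, Rxrg, Top2b and marker genes named as context came in with the results in view. The members and lists were chosen with earlier results of these data known.

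Libraries with the same number in non-degradable PEG and Matrigel deviated together (correlations of 0.331, 0.176 and 0.186). Values from a fit with that number as a block (replicate block) therefore stand beside that comparison where calls changed. Block values are also given for the other comparisons, as an alternative only, since the correlations there were less even. Alternatives were DESeq2 1.42.0, upper-quartile scaling, no filter, a filter of 10 CPM, a fit of the compared matrices only, the block, and leaving out each library.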

Additional observations from a re-analysis of the deposited data

How the results depend on the processing

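Each value was recomputed under 15 alternatives. Of 1134 values of single genes, 993 kept their direction and their side of the threshold, 89 lost their call, 24 gained one and 28 changed sign, and none of the 28 had passed. The 993 include 15 values of Isx in each gel against Matrigel, which carry no test and have no side of the threshold. Those kept their direction and moved by less than the spread between libraries. With the replicate block, non-degradable PEG against Matrigel had 5 of the 8 genes other than Isx and 21 other pathway genes, beside 26.1% of all genes. Leaving out 1 library gave 3 to 4 and 5 to 14, beside 1189 to 3247 of all genes. In degradable PEG against Matrigel, the filter of 10 CPM gave 1 gene (Rarb was under the filter) and 7 pathway genes, beside 1037 of 9927 genes. Between the gels, the genes other than Isx numbered 2 with DESeq2, 1 with no filter, 1 in the fit of the compared matrices and 2 with the replicate block, with 0 to 1 when a library was left out. Pathway genes between the gels numbered 8 with DESeq2, 8 with no filter and 7 with the replicate block, with 0 to 4 when a library was left out. Over all genes between the gels, DESeq2 called 512 of 14870, the unfiltered fit 521 of 25392 and the fit of the compared matrices 182 of 14595. The replicate block called 542 of 14870, and leaving out a library gave 19 to 242 genes. The log2 difference of Isx between the gels was 0.685 with no filter and 0.677 in the fit of the PEG libraries, both past the threshold, and 0.596 to 0.746 when a library was left out. In 12 of the 15 alternatives it missed the threshold. The causes of these shifts were not tested.

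Signs changed for values that were small beside their errors. Scarb1 in non-degradable PEG against Matrigel was -0.00443 with no filter and -0.0107 to 0.0265 when a library was left out. In degradable PEG against Matrigel it was 0.0140 with upper-quartile scaling and -0.0474 to 0.00711 when a library was left out, and between the gels -0.00341 to 0.0559. Leaving out a library gave -0.110 to 0.0786 for Rara in non-degradable PEG against Matrigel, and between the gels -0.0592 to 0.155 for Rarb and -0.00343 to 0.266 for Rarg. In degradable PEG against Matrigel, the unfiltered fit put Cyp26b1 at -0.0112 and the replicate block at -0.0349, with a range of -0.639 to 0.369 when a library was left out. There Rxrb was 0.0230 with upper-quartile scaling, 0.00518 with the filter of 10 CPM and -0.0943 to 0.0172 when a library was left out. Leaving out a library gave -0.505 to 0.176 for Aldh1a2 in non-degradable PEG against Matrigel and -0.129 to 0.603 in degradable PEG against Matrigel, and between the gels -0.0877 to 0.0239 for Rxrb and -0.0810 to 0.0445 for Cdx2.

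The main fit had no replicate block in any comparison, and the labels do not say what equal replicate numbers share. Correlations between libraries of equal number were less even in the other comparisons. For degradable PEG against Matrigel they were 0.258, 0.0712 and 0.226. Every library correlated best with its own number there, as in non-degradable PEG against Matrigel. Between the gels they were 0.288, 0.0197 and 0.511, and replicate 2 correlated best with replicate 1. Depth limits Crabp2, Aldh1a2, Aldh1a3, Cyp26b1 and the Matrigel level of Isx.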
